A study of Homo sapiens with 4 samples.

Results

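The caspase genes CASP1, CASP2, CASP4, CASP6, CASP8, CASP9 and CASP10 were followed in SW1990 and PANC-1 cells, 2 established human pancreatic cancer cell lines, with and without 10 Gy of X-rays. These 7 genes were chosen by their symbol from a table of 58174 genes, and 6 of them had counts. RNA was sequenced from unirradiated SW1990 cells, irradiated SW1990 cells, unirradiated PANC-1 cells and irradiated PANC-1 cells, with 1 library each and 4 libraries in all, and the authors deposited a read count and an FPKM (fragments per kilobase of transcript, scaled to the mapped fragments) per gene and library. SW1990 cells grew in 1640 medium and PANC-1 cells in DMEM, both with serum, so that medium and cell line cannot be told apart, and the time between irradiation and RNA collection is not given in the sources used here. The counts on genes summed to 17851815 and 18305682 in unirradiated and irradiated SW1990 cells, and to 23323266 and 20026595 in unirradiated and irradiated PANC-1 cells. With 1 library per group there was no replicate, so the intervals below are 95% intervals that cover counting error only, and a call between 2 libraries compares those libraries and not the conditions.

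Caspases are proteases that carry a cysteine in their active site and cut their targets after aspartate. The cell makes them as inactive precursors. Initiator caspases are switched on when they are brought together on a platform: CASP8 and CASP10 on a ligand-bound death receptor, CASP9 on the apoptosome that forms when cytochrome c leaves mitochondria, and CASP2 on the PIDDosome, which has been linked to DNA damage and to extra centrosomes. Executioner caspases such as CASP6, which cuts nuclear lamins, are cut and switched on by other caspases, while the inflammatory caspases CASP1 and CASP4 cut gasdermin D, and CASP1 also cuts the precursors of interleukins. A transcript level therefore says how much precursor RNA a cell holds and not whether the protease is active, and it cannot tell fewer cells that express a gene from less RNA per cell.

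The stretch around the catalytic cysteine is shown for all 7 genes, since it is what makes them 1 family and since their likeness bears on how reads can be told apart. Each line gives 45 bases of a transcript in GENCODE release 29, 5′ to 3′, with 5 codons in capitals, of which the one in the middle is the cysteine codon.
CASP8: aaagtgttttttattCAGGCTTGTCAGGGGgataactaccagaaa
CASP10: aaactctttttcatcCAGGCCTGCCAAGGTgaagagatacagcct
CASP9: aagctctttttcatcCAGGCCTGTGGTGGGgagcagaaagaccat
CASP2: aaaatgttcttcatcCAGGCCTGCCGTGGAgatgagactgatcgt
CASP6: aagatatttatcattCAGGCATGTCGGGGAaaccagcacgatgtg
CASP1: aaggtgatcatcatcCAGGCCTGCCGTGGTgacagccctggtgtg
CASP4: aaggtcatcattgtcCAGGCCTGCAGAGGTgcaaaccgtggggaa
In the capitals all 7 genes code for glutamine, alanine and cysteine followed by a variable residue and glycine. The transcripts and the stretch were picked by this motif, so that its presence in all 7 is not a finding. CASP1 and CASP4 shared 33 of the 45 bases, as did CASP9 and CASP10 and also CASP2 and CASP10, and the pair with the fewest identical bases, CASP4 and CASP6, shared 22. On GRCh38 the cysteine codon of CASP8 lies at chr2:201285091-201285093 on the plus strand, in exon 9 of the transcript used, and that of CASP10 at chr2:201209348-201209350, also in exon 9. The codon of CASP9 lies at chr1:15504618-15504620 on the minus strand, that of CASP2 at chr7:143300285-143300287 on the plus strand and that of CASP6 at chr4:109691004-109691006 on the minus strand. On the minus strand of chromosome 11, the codon of CASP1 is at chr11:105029672-105029674 and that of CASP4 at chr11:104949550-104949552. The longest identical run between any CASP8 and any CASP10 transcript was 28 bases and that between CASP8 and CFLAR 43 bases, whereas CASP1 shared a run of 144 bases with its neighbour CARD16.

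Levels were first compared between the caspases per transcript length, in FPKM. In unirradiated SW1990 cells CASP4 stood at 27.4 FPKM (25.6 to 29.4), CASP2 at 26.4 (24.9 to 28.0) and CASP8 at 24.7 (23.2 to 26.4), so that neighbours in this order had overlapping intervals. CASP6 followed at 18.3 FPKM (16.4 to 20.5), CASP9 at 5.27 (4.58 to 6.04) and CASP10 at 1.88 (1.51 to 2.3), each with an interval apart from its neighbours, and CASP1 was listed at 0. In irradiated SW1990 cells CASP2 came first at 28.7 FPKM (27.3 to 30.2), above CASP4 at 25.1 (23.3 to 27.0) and CASP8 at 21.9 (20.5 to 23.4), whose intervals overlapped each other but not that of CASP2. CASP6 was at 13.5 FPKM (11.9 to 15.4). CASP10, at 4.97 FPKM (4.38 to 5.61), stood next to CASP9 at 6.86 (6.10 to 7.69), without an overlap of the intervals.

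The order differed in PANC-1 cells. CASP8 led at 23.3 FPKM (21.9 to 24.7), before CASP2 at 19.1 (18.1 to 20.1) and CASP4 at 11.6 (10.6 to 12.7). CASP9 at 5.04 FPKM (4.47 to 5.67) and CASP6 at 4.48 (3.65 to 5.43) overlapped, and CASP10 and CASP1 were listed at 0. After irradiation the order held, with CASP8 at 21.2 FPKM, CASP2 at 15.2, CASP4 at 6.64, CASP9 at 4.68 (4.11 to 5.31) and CASP6 at 3.78 (2.98 to 4.72), and CASP10 was at 0.0539 FPKM. Of the summed FPKM of the 7 genes, CASP8 made up 36.7% and 41.1% in PANC-1 cells without and with radiation, against 23.8% and 21.7% in SW1990 cells. The sum itself was 104 and 101 FPKM in SW1990 cells and 63.5 and 51.6 FPKM in PANC-1 cells. This gap between the lines depends on the scaling of FPKM to mapped fragments. With the scaling used for changes below, CASP2, CASP8 and CASP9 were lower in unirradiated SW1990 than in unirradiated PANC-1 cells. Their log2 differences were -0.12, -0.08 and -0.28, while CASP4, CASP6 and CASP10 were higher.

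**Figure D1:**
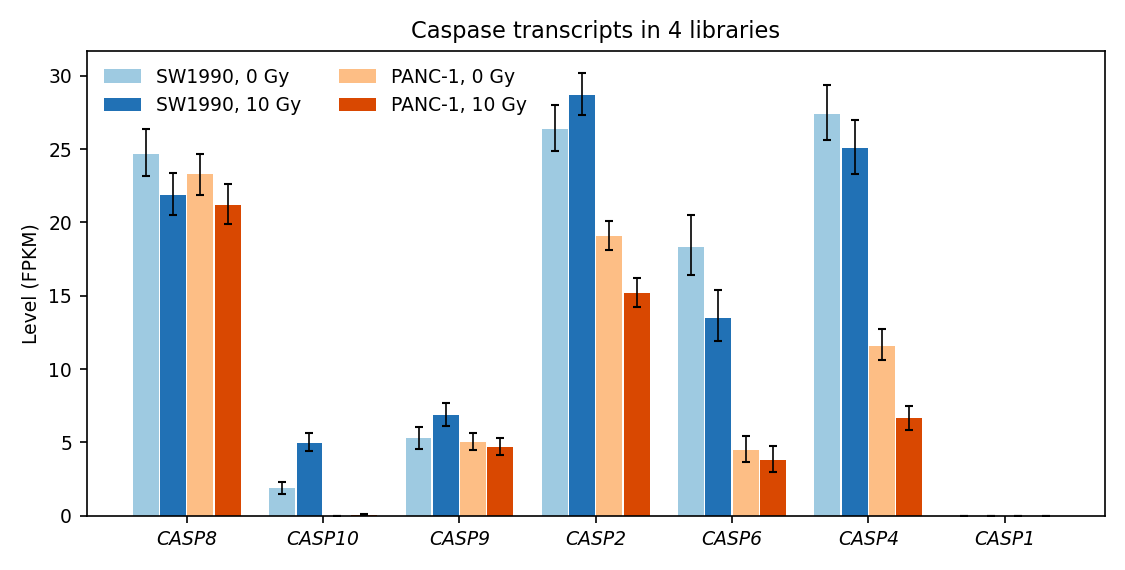
Level of each caspase in FPKM (vertical axis, from 0) in the 4 libraries, with bars for unirradiated and irradiated SW1990 and PANC-1 cells and error bars for the 95% Poisson interval of the counts (1 library each). CASP8 stood between 21.2 and 24.7 FPKM in all 4 libraries, while CASP2, CASP4, CASP6, CASP9 and CASP10 were higher in both SW1990 libraries than in both PANC-1 libraries on this scale, on which 75.6% of all genes did not overlap between the lines.

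Changes were computed from counts scaled to library size by the TMM method, given as CPM, a count relative to the scaled size of its library. The first comparison asks which transcripts differ between a line with and without 10 Gy. A gene was called between 2 libraries at a fold change above 2 with a q-value under 0.001, among genes with at least 1 FPKM in either library. In SW1990 cells 4.26% of all 15731 genes tested were called, and of the 6 caspases tested 1 was called, CASP10. The median log2 fold change over the 6 caspases was 0.17, with 3 higher and 3 lower, against 0.02 over all genes tested. In PANC-1 cells 4.77% of 15159 genes were called and 0 of 5 caspases. All 5 were lower in the irradiated library, with a median of -0.29 against -0.02 over all genes. The counting intervals of CASP6, CASP8 and CASP9 reached or crossed a log2 change of 0, and those of CASP2 and CASP4 did not. With a fold change limit of 1.5, the call took 9.5% of all genes in SW1990 cells, where CASP10 was still the one caspase called, and 11.8% in PANC-1 cells, where CASP4 was the one caspase called.

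CASP10 (ENSG00000003400, chr2:201182881-201229406, plus strand), the initiator that acts beside CASP8 at death receptors, had 92 and 259 counts in SW1990 cells without and with radiation, and 0 and 8 counts in PANC-1 cells. The 2 SW1990 libraries were thus far above the 2 PANC-1 libraries, and in each line the irradiated library was the higher one. In SW1990 cells its level went from 4.79 to 13.7 CPM, a 2.86-fold difference (2.24 to 3.66), or 1.51 on the log2 scale. From the deposited FPKM the log2 difference was 1.40. The call was lost when a coefficient of variation of 0.2 between replicates was assumed. The fit of the 4 libraries with terms for line and treatment gave 0.218. That value includes differences of the radiation response between the lines and is not a spread between replicates. In PANC-1 cells the irradiated library was at 0.409 CPM, which is 2.92 times the 0.14 CPM that 3 counts make in the unirradiated one, a ratio that leaves out the counting error of the 8 counts, and the gene was not tested there because its FPKM stayed under 1.

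CASP10 was also the caspase with the widest gap between the lines. Unirradiated SW1990 cells were 34.2-fold above the level that 3 counts make in unirradiated PANC-1 cells. That ratio leaves out the counting error of the 92 counts. Irradiated SW1990 cells were 33.5-fold above irradiated PANC-1 cells (16.7 to 78.4), or 92.1-fold from FPKM, against only 8 counts. CASP8, which shares a run of at most 28 bases with it, had 973 and 897 counts in the SW1990 libraries and 1148 and 963 in the PANC-1 libraries. CFLAR, which shares a run of at most 31 bases with it, had 2945 and 2750 counts in the SW1990 libraries. In the PANC-1 libraries CFLAR had 1133 and 1016. Whether shared runs bear on the counts of CASP10 was not tested.

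CASP8 (ENSG00000064012, chr2:201233443-201287711, plus strand), the initiator of death receptor signalling and the neighbour of CASP10, varied least. It stood at 50.7 and 47.4 CPM in SW1990 cells without and with radiation, and at 53.6 and 49.2 CPM in PANC-1 cells, so that the lines overlapped. The irradiated library was 0.935-fold the unirradiated one in SW1990 cells (0.853 to 1.03) and 0.918-fold in PANC-1 cells (0.842 to 1.0). Both intervals reach or cross 1. Together with CFLAR, which codes for the inhibitor FLIP and lies on the other side of CASP10, these genes form a cluster on chromosome 2. CFLAR had 2945 and 2750 counts in unirradiated and irradiated SW1990 cells and 1133 and 1016 in PANC-1 cells. The log2 difference with radiation was -0.08 in SW1990 cells, with -0.03 in PANC-1 cells, where it turned to 0.19 from FPKM and to 0.06 with scaling to total counts. Per transcript length, CFLAR stood at 1.73 and 1.6 times the level of CASP8 in unirradiated and irradiated SW1990 cells and at 0.932 and 1.17 times in PANC-1 cells.

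**Figure D2:**
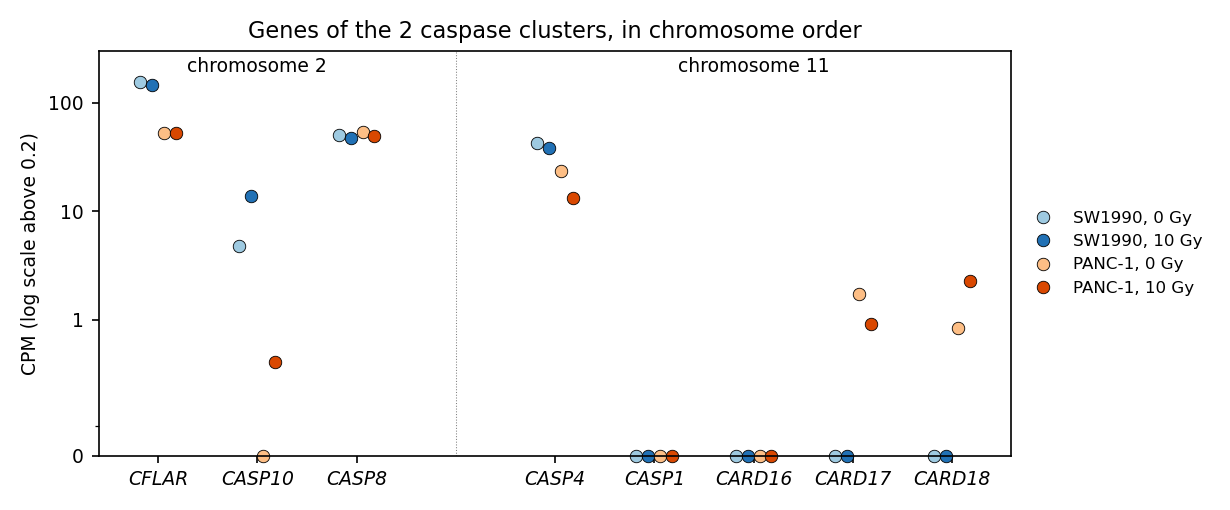
Level in CPM (vertical axis, log scale above 0.2 and linear down to 0) of genes of the caspase clusters on chromosome 2 and chromosome 11, in chromosome order, with 1 point per library coloured by line and dose. CASP10 lies between CFLAR and CASP8 and has points from 0 to 13.7 CPM, while CASP8 stays between 47.4 and 53.6 CPM. On chromosome 11, CASP4 has points from 13.2 to 42.3 CPM beside CASP1 and CARD16 at 0.

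CASP9 (ENSG00000132906, chr1:15490832-15526534, minus strand), the protease of the apoptosome, had 208 and 298 counts in SW1990 cells without and with radiation, and 282 and 241 counts in PANC-1 cells. The irradiated SW1990 library was the highest at 15.7 CPM and the unirradiated SW1990 library the lowest at 10.8 CPM, with both PANC-1 libraries, at 13.2 and 12.3 CPM, between them. The ratio of irradiated to unirradiated was 1.45 in SW1990 cells (1.21 to 1.74) and 0.935 in PANC-1 cells (0.784 to 1.11). Neither passed the call.

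CASP2 (ENSG00000106144, chr7:143288215-143307696, plus strand), the protease of the PIDDosome, differed in opposite directions in the 2 lines. It had 1125 and 1495 counts in SW1990 cells without and with radiation, and 1361 and 922 counts in PANC-1 cells. The irradiated libraries were thus the highest and the lowest of the 4, at 78.9 and 47.1 CPM, around the unirradiated ones at 58.6 and 63.5 CPM. Changes in opposite directions with both counting intervals apart from 0 were found for 13.6% of 13173 genes with counts in all 4 libraries and tested in both lines. The ratio of irradiated to unirradiated was 1.35 in SW1990 cells (1.25 to 1.46) and 0.741 in PANC-1 cells (0.681 to 0.807), both short of the fold change limit. On the log2 scale the responses differed by 0.86 (0.70 to 1.03) from counts and by 0.45 from FPKM. From FPKM the log2 difference was 0.12 in SW1990 cells, against 0.43 from counts. There the FPKM intervals of the unirradiated and irradiated library overlapped. In PANC-1 cells it was -0.33 from FPKM, against -0.43 from counts. The transcript length that the ratio of counts to FPKM implies, another way to state the gap between these scales, was 2388 and 2845 bases in SW1990 cells without and with radiation, and 3062 and 3034 bases in PANC-1 cells. Within the gene lie 2 pseudogenes on the same strand, RN7SL535P with 64, 62, 12 and 19 counts and RN7SL481P with 20, 24, 12 and 9 counts in the same order of libraries.

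CASP6 (ENSG00000138794, chr4:109688622-109703583, minus strand), the executioner that cuts lamin A, had 310 and 231 counts in SW1990 cells without and with radiation, and 103 and 77 counts in PANC-1 cells. Both SW1990 libraries were above both PANC-1 libraries, and in each line the irradiated library was the lower one. Irradiated SW1990 cells were at 0.756-fold the unirradiated level (0.635 to 0.899) and irradiated PANC-1 cells at 0.818-fold (0.601 to 1.11), and neither difference was called. CASP6 overlaps MCUB on the opposite strand by 105 bases. MCUB had 405, 388, 426 and 352 counts, a range much narrower than that of CASP6, and whether the counting used strand is not given in the sources used here.

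CASP4 (ENSG00000196954, chr11:104942866-104969436, minus strand), the sensor of bacterial lipopolysaccharide in the cytosol, had counts in all 4 libraries, unlike CASP1. It had 812 and 729 counts in SW1990 cells without and with radiation, and 497 and 259 counts in PANC-1 cells. The irradiated PANC-1 library was the lowest at 13.2 CPM, against 23.2 CPM without radiation and 42.3 and 38.5 CPM in unirradiated and irradiated SW1990 cells. The ratio of irradiated to unirradiated was 0.570 in PANC-1 cells (0.489 to 0.664), which passed the limit of 1.5 but not that of 2, and 0.911 in SW1990 cells (0.823 to 1.01). The log2 change in PANC-1 cells was -0.81 from counts and from FPKM.

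CASP1 (ENSG00000137752, chr11:105025443-105035250, minus strand), the protease of the inflammasome, had 0 counts in all 4 libraries. A count of 0 allows up to 3 counts, or 0.156 and 0.158 CPM in unirradiated and irradiated SW1990 cells and 0.14 and 0.153 CPM in PANC-1 cells. CARD16, with which it shares the run of 144 bases, was also at 0 in all 4 libraries. In the same cluster, CARD17 and CARD18, which code for proteins with a caspase recruitment domain and no protease, were at 0 in both SW1990 libraries. CARD17 lies within the span of CARD16 on the same strand, and its longest run shared with CASP1 is 51 bases. Whether this overlap bears on the counts of these genes was not tested. In unirradiated and irradiated PANC-1 cells CARD17 had 37 and 18 counts and CARD18 had 18 and 44 counts, and CARD18 was called higher after irradiation, with a log2 change of 1.42 (0.60 to 2.3). The call rests on few counts and was lost with an assumed coefficient of variation of 0.2 or 0.4.

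**Figure D3:**
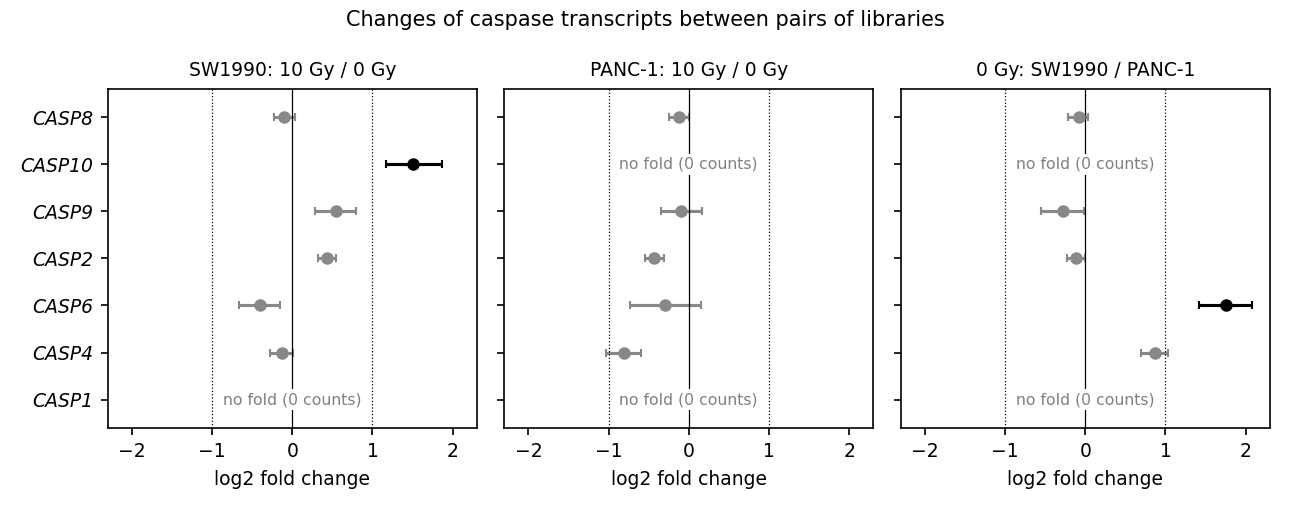
Log2 fold change (horizontal axis) of each caspase in 3 panels, for irradiated against unirradiated SW1990 cells, irradiated against unirradiated PANC-1 cells, and unirradiated SW1990 against unirradiated PANC-1 cells. Points are ratios of TMM-scaled counts with 95% counting intervals, dotted lines mark a fold change of 2, black points passed the call, and genes with a library at 0 have no point. CASP10 in SW1990 cells (1.51) and CASP6 between the lines (1.75) are the points past the dotted lines.

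The difference of the radiation response between the lines could be set out for the 5 caspases tested in both. It was 0.03 on the log2 scale for CASP8 (-0.15 to 0.21) and -0.11 for CASP6 (-0.61 to 0.38), with intervals across 0. For CASP9 it was 0.64 (0.28 to 0.99), for CASP4 0.68 (0.41 to 0.94) and for CASP2 0.86, each with the higher value in SW1990 cells. A difference over 1 was found for 0 of these 5 genes and for 12% of the 13228 genes tested in both lines. With 1 library per group this difference has no test against replicates. It also moves with scaling, since total counts in place of TMM shift the median of all genes by 0.09 in PANC-1 cells and by -0.06 in SW1990 cells.

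The 4 libraries were also fitted together, with a term for the line and 1 residual degree of freedom (edgeR's quasi-likelihood test), to ask for a radiation effect common to both lines. It called 0.0% of 18180 genes and 0 of 6 caspases at an adjusted p below 0.05, while 833 genes had an unadjusted p below 0.05 and DESeq2's Wald test called 39 genes. Among the caspases CASP10 had an unadjusted p below 0.05, with an adjusted p of 0.936 in edgeR's quasi-likelihood test. In DESeq2's Wald test its unadjusted p was above 0.05 and it had no adjusted p. For the other 5 caspases the adjusted p lay between 0.936 and 0.999 in edgeR's quasi-likelihood test.

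More genes were called between the lines than with radiation. Between the unirradiated libraries 36.2% of 16626 genes were called, and of the 6 caspases CASP10 and CASP6 were called higher in SW1990 cells. CASP6 was 3.36-fold higher (2.68 to 4.24). CASP4 was 1.82-fold higher (1.63 to 2.04), under the limit of 2, but passed it from FPKM with a log2 difference of 1.24 and with scaling to total counts with 1.09. CASP2, CASP8 and CASP9 differed by -0.12, -0.08 and -0.28 on the log2 scale, with SW1990 cells lower, but from FPKM the sign turned, to 0.47, 0.09 and 0.06, and with total counts, which shift all genes by 0.23 in this comparison, it turned for CASP2 (0.11) and CASP8 (0.15).

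Over both treatments, edgeR's quasi-likelihood test called 43.6% of genes between the lines, and CASP10, CASP6 and CASP4 were the 3 of 6 caspases called. The adjusted p was 0.00945 for CASP6 at a log2 difference of 1.69, 0.0163 for CASP4 at 1.20 and 0.0058 for CASP10, for which no fold is given because of the library at 0. Over 8 alternatives the adjusted p ranged from 0.00578 to 0.036 for CASP6, from 6.2e-05 to 0.0408 for CASP10 and from 0.00923 to 0.0665 for CASP4, whose call was lost in the edgeR fit without the unirradiated SW1990 library and without the treatment term (0.022 in the fit of all 4 libraries without that term). CASP2, CASP8 and CASP9 had adjusted p of 0.346, 0.757 and 0.914 in edgeR's test. In CPM the 2 libraries of each line did not overlap for CASP10, CASP6 and CASP4 and overlapped for the other 3 caspases, while 76.7% of all genes did not overlap. In FPKM, CASP2 and CASP9 did not overlap either, and 75.6% of all genes did not overlap. In this fit the unirradiated and the irradiated library of a line stood in for replicates.

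The partners of the caspases were described in lists by pathway. The death receptor list holds 25 receptors, adaptors and inhibitors, of which 22 were tested in SW1990 cells (16 higher, 6 lower, median log2 change 0.07) and 20 in PANC-1 cells (9 higher, 11 lower, median -0.04), with 0 called in either line. Over all genes the median was 0.02 and -0.02 and the share called 4.26% and 4.77%. FAS, a receptor that recruits FADD and CASP8, had 234 and 380 counts in unirradiated and irradiated SW1990 cells and 7 and 9 counts in PANC-1 cells. In SW1990 cells its log2 difference was 0.72 from counts (0.48 to 0.96) and 1.20 from FPKM. FAS overlaps ACTA2 on the opposite strand, which had 110 and 218 counts in SW1990 cells and 0 in both PANC-1 libraries.

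TNFRSF10B, a receptor for the ligand TRAIL, had 2002 and 2699 counts in unirradiated and irradiated SW1990 cells and 2730 and 1553 counts in PANC-1 cells. As for CASP2, the irradiated libraries were the highest and the lowest, at 143 and 79.3 CPM. The log2 difference was 0.45 (0.37 to 0.54) in SW1990 cells and -0.68 (-0.77 to -0.59) in PANC-1 cells, where it passed the limit of 1.5 from counts but not from FPKM (-0.37). The other TRAIL receptor, TNFRSF10A, had log2 differences of 0.16 and -0.33, the second of which turned to 0.06 from FPKM. The adaptor FADD stood at 34.3 and 36.5 CPM in SW1990 cells and 47.1 and 53.3 CPM in PANC-1 cells, and the kinase RIPK1 between 61.8 and 74.7 CPM in the 4 libraries. RIPK3, the kinase of necroptosis, which CASP8 holds back, had 90 and 137 counts in SW1990 cells and 0 counts in both PANC-1 libraries. Over both treatments edgeR's quasi-likelihood test called 8 of the 23 genes of this list that it kept higher in SW1990 cells and 3 higher in PANC-1 cells, beside 43.6% of all genes called in either direction, with FAS (adjusted p 0.00124), CFLAR (0.00252), RIPK3 (0.00457) and TNFRSF10A (0.00587) among the 8.

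**Figure D4:**
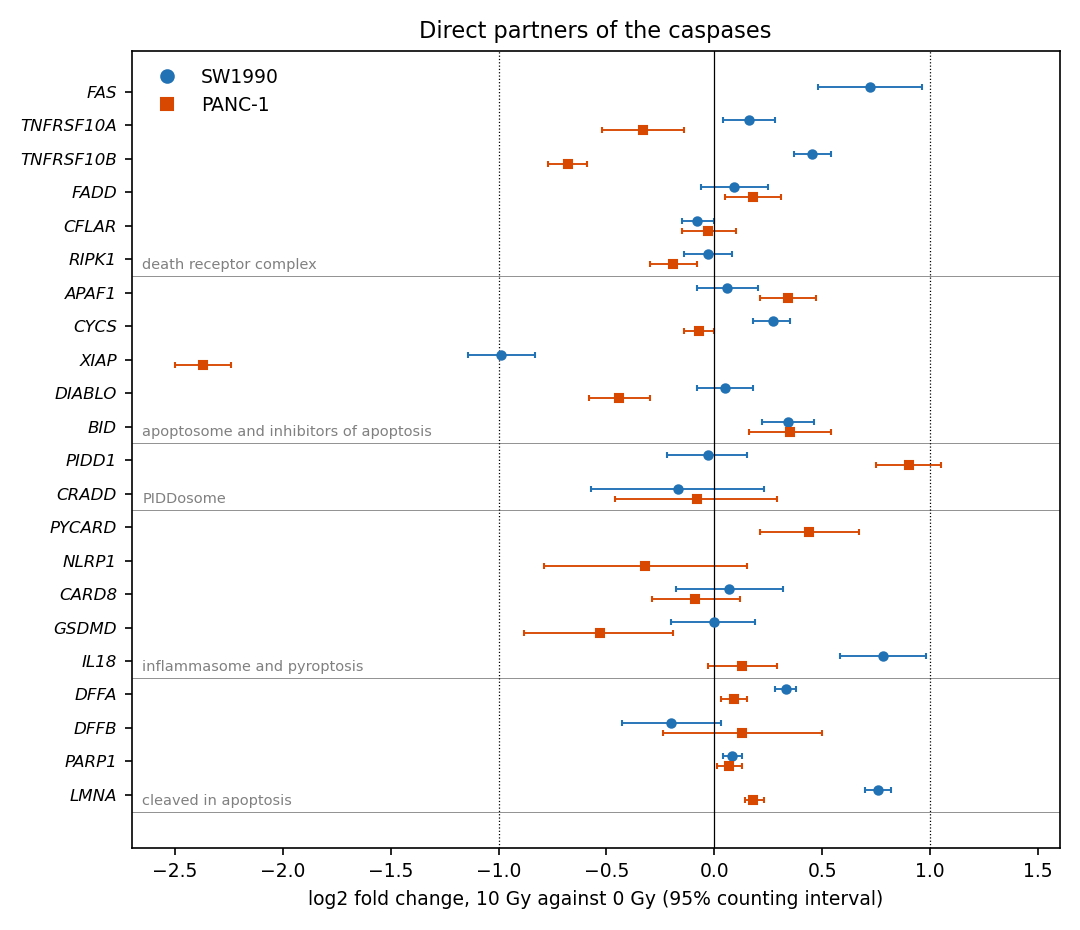
Log2 fold change with radiation (horizontal axis) of direct partners of the caspases, grouped by list, with circles for SW1990 and squares for PANC-1 cells, 95% counting intervals as bars and dotted lines at a fold change of 2. Genes with under 10 counts in a library of the line have no point for it. XIAP in PANC-1 cells (-2.37) lies past the dotted line, and TNFRSF10B has points on opposite sides of 0.

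Of 22 symbols for the apoptosome and the inhibitors of apoptosis 21 were found, and 18 genes were tested in SW1990 cells (15 higher, 3 lower, median 0.21, 0 called) and 19 in PANC-1 cells (12 higher, 7 lower, median 0.24, 1 called higher and 1 lower). Of all genes tested 4.26% and 4.77% were called, with medians of 0.02 and -0.02. XIAP, which binds and blocks CASP9, had 1021 and 508 counts in unirradiated and irradiated SW1990 cells and 3186 and 565 counts in PANC-1 cells. It was called lower after irradiation in PANC-1 cells, with a log2 change of -2.37 (-2.50 to -2.24), and its log2 difference in SW1990 cells was -0.99 (-1.14 to -0.83), just short of the limit, which it passed at -1.04 with scaling to total counts. From FPKM these were -1.24 and -0.68, and the transcript length implied by counts and FPKM was shorter in the irradiated library of each line, at 6152 against 7937 bases in SW1990 cells and 4372 against 8969 bases in PANC-1 cells. Per length, XIAP stood at 1.37 and 0.658 times the level of CASP9 in unirradiated and irradiated SW1990 cells and at 3.02 and 1.38 times in PANC-1 cells. BIRC7, another inhibitor of this family, had 3 and 0 counts in SW1990 cells and 114 and 343 counts in PANC-1 cells, where it was called higher with a log2 change of 1.72 (1.41 to 2.04). That call was lost with an assumed coefficient of variation of 0.2 or 0.4, and the call of XIAP with 0.4.

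APAF1, the scaffold of the apoptosome, stood at 45 and 46.8 CPM in SW1990 cells and at 40.2 and 50.9 CPM in PANC-1 cells. Cytochrome c (CYCS) was at 113 and 135 CPM in SW1990 cells and at 190 and 181 CPM in PANC-1 cells. The XIAP antagonist DIABLO had a log2 difference of 0.05 (-0.08 to 0.18) in SW1990 cells and -0.44 (-0.58 to -0.30) in PANC-1 cells. BID, which CASP8 cuts to carry the signal to mitochondria, was at 54.2 and 68.6 CPM in SW1990 cells and at 19.2 and 24.5 CPM in PANC-1 cells, with log2 differences with radiation of 0.34 (0.22 to 0.46) and 0.35 (0.16 to 0.54). It was called higher in SW1990 cells over both treatments, with a log2 difference of 1.5 and an adjusted p of 0.00343 in edgeR's quasi-likelihood test.

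Of 8 symbols on the PIDDosome list 7 were found and tested, of which 0 were called in either line, beside 4.26% and 4.77% of all genes (median -0.03 in SW1990 and 0.06 in PANC-1 cells). PIDD1, the p53-induced scaffold that recruits CASP2, had 491 and 474 counts in unirradiated and irradiated SW1990 cells and 554 and 944 counts in PANC-1 cells. The irradiated PANC-1 library was thus the highest, with a log2 difference of 0.90 (0.75 to 1.05) that passed the limit of 1.5 (1.0 and past the limit of 2 from FPKM), against -0.03 (-0.22 to 0.15) in SW1990 cells. CASP2 itself had log2 differences of -0.43 and 0.43 in these lines from counts, and of -0.33 and 0.12 from FPKM. PIDD1 overlaps the abundant ribosomal gene RPLP2 on the opposite strand, which had 3923, 3749, 7434 and 7798 counts. The adaptor CRADD stood between 5.28 and 6.07 CPM in all 4 libraries. MDM2, a p53 target that CASP2 can cut, had 4522 and 7373 counts in SW1990 cells, a log2 difference of 0.73 (0.67 to 0.78) past the limit of 1.5, and 3070 and 3273 counts in PANC-1 cells, a log2 difference of 0.22 (0.15 to 0.29). From FPKM these were 0.43 and 0.57, both short of that limit and in the other order.

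Of 33 symbols on the inflammasome and pyroptosis list 32 were found. In SW1990 cells 13 were tested (9 higher, 4 lower, median 0.05), with 1 called higher and 1 lower, and in PANC-1 cells 15 were tested (9 higher, 6 lower, median 0.13), with GSDMB and CARD18 called higher, beside 4.26% and 4.77% of all genes called in these lines. IL1RN, the antagonist of the interleukin 1 receptor, had 105 and 387 counts in unirradiated and irradiated SW1990 cells and 0 in both PANC-1 libraries, and was called higher in SW1990 cells with a log2 change of 1.90 (1.59 to 2.23), a call that was lost with an assumed coefficient of variation of 0.2 or 0.4. GSDMB, a gasdermin, had 472 and 227 counts in SW1990 cells and 73 and 134 counts in PANC-1 cells. It was called in both lines with opposite signs, -1.04 (-1.27 to -0.80) and 1.01 (0.58 to 1.44), but from FPKM the differences were -0.19 and 0.90, under the limit, and both calls were lost with an assumed coefficient of variation of 0.2 or 0.4. PYCARD, the adaptor that links sensors to CASP1, had 0 counts in both SW1990 libraries and 278 and 345 counts in PANC-1 cells. These are 83.1-fold and 111-fold above what 3 counts make in SW1990 cells, leaving out the counting error of the 278 and 345 counts. The sensor NLRP1 had 3 and 2 counts in SW1990 cells and 93 and 68 in PANC-1 cells.

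GSDMD, the pore protein that CASP1 and CASP4 cut, stood at 22.9 and 22.8 CPM in unirradiated and irradiated SW1990 cells and at 8.49 and 5.87 CPM in PANC-1 cells, the same order of libraries as for CASP4. Its log2 difference between the lines over both treatments was 1.69, with an adjusted p of 0.00821 in edgeR's quasi-likelihood test. IL18, an interleukin whose precursor CASP1 and CASP4 cut, was at 17.1 and 29.3 CPM in SW1990 cells, a log2 difference of 0.78 past the limit of 1.5, and at 29.4 and 32.3 CPM in PANC-1 cells. CARD8, a sensor that acts through CASP1, stood between 13.6 and 14.4 CPM in SW1990 and between 18.6 and 19.7 CPM in PANC-1 cells. Of the 21 genes of this list kept in the fit of 4 libraries, 7 were called higher in SW1990 cells, 8 higher in PANC-1 cells and 6 were not called, beside 43.6% of all genes called in either direction.

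Of 28 genes whose proteins caspases cut in apoptosis, 27 were tested in each line and 0 were called in either, beside 4.26% and 4.77% of all genes (18 higher and 9 lower in SW1990 cells, median 0.08, and 17 higher and 10 lower in PANC-1 cells, median 0.02). LMNA, the lamin that CASP6 cuts, was at 183 and 309 CPM in unirradiated and irradiated SW1990 cells, a log2 difference of 0.76 (0.70 to 0.82) past the limit of 1.5 (0.51 and short of it from FPKM), and at 418 and 474 CPM in PANC-1 cells. Its line order was the reverse of that of CASP6, with PANC-1 cells higher (log2 difference -0.90, adjusted p 0.0191 in edgeR's quasi-likelihood test). PARP1, the repair enzyme cut in apoptosis, was at 372 and 394 CPM in SW1990 cells and 221 and 232 CPM in PANC-1 cells, and the DNase DFFB at 17.8 and 15.5 CPM and at 5.79 and 6.33 CPM. DFFA, which holds DFFB inactive until it is cut, stood at 272 and 342 CPM in SW1990 cells and 195 and 207 CPM in PANC-1 cells.

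The genes with the most similar profile over the 4 libraries were found by the root mean square difference of centred log2 CPM, as a description. The search covered 13137 genes that were tested with radiation in both lines and between the unirradiated lines. Each of them thus reached 1 FPKM in a PANC-1 library. For CASP8 these were ICE1 and DELE1, both at 0.009 log2 units, for CASP6 PRPS2 (0.020) and MANF (0.035), and for CASP9 SOCS4 (0.030) and IRGQ (0.032). For CASP4 they were H6PD (0.041) and SLC6A6 (0.057), and for CASP2 ZNF91 and DDX19B (both 0.045). For CASP10, PTGES (0.25) and ELF3 (0.36) were the closest of these genes. CASP10 itself stayed under 1 FPKM in PANC-1 cells, and genes that did the same were left out of the search. Its larger distances therefore do not show that its profile is unlike that of all other genes. PTGES had 574 and 968 counts in SW1990 cells and 41 and 85 in PANC-1 cells.

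The labelled cell type was checked against its markers. All 5 epithelial markers were at 1 FPKM or more in all 4 libraries, with sums of 2740 and 3480 FPKM in SW1990 cells and 1410 and 1640 FPKM in PANC-1 cells, and KRT8 as the most abundant. EPCAM was far lower in PANC-1 cells, with 108 and 113 counts against 7348 and 7552. The 4 leukocyte markers summed to at most 1.35 FPKM in a library, nearly all from CD14, with CD3E at 0 in all 4 libraries and PTPRC at 2 counts in irradiated SW1990 cells and at 0 in the other libraries. The 4 fibroblast markers summed to 1.40 and 2.85 FPKM in SW1990 cells and 8.44 and 11 FPKM in PANC-1 cells, all from COL1A1, with COL1A2, PDGFRA and DCN at 0. The 2 endothelial markers were at 0.0831 FPKM or less in sum.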

How the data were processed

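For each gene and library the authors deposited a read count, not normalized, and an FPKM value, scaled to transcript length and mapped fragments. Per the labels and the paper's methods they used CASAVA 1.8, FastQC 0.11.2, Trimmomatic 0.36, HISAT2 2.0, StringTie 1.3.3b and DESeq2 1.12.4 on GRCh38. The counting tool and its use of strand are not given in the sources used here. The labels name both an mRNA kit and rRNA depletion.

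Rows that name no gene (1089 of 59263, 0.453 to 0.635% of the counts of a library) were left out, and 57836 gene identifiers were found in GENCODE release 29. Libraries held 17939210 to 23451153 counts, and 3 counts was taken as the limit that a count of 0 allows.

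Libraries were compared with edgeR's binomTest (edgeR 4.0.16, R 4.3.3; TMM, Benjamini-Hochberg over all genes tested, q below 0.001 and fold change above 2, at least 1 FPKM in 1 of 2 libraries, a value of 0 set to 0.01), with exact Clopper-Pearson intervals, and Poisson intervals for FPKM. Differences of responses have a Wald interval from the counts. The 4 libraries were fitted with edgeR's quasi-likelihood test (filterByExpr, line and treatment as terms, adjusted p below 0.05), with DESeq2 1.42.0 as an alternative. Profiles were compared with a pseudocount of 0.5 CPM. Scaling, filters, fold limits, an assumed coefficient of variation and FPKM were varied, and calls by q-value alone were added after seeing the data.

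The caspases and the lists were chosen with earlier results of these data known. The text names all 7 caspases, genes marked as direct partners, genes called, the 2 largest changes per list and line (a part of these is printed), and the markers. ACTA2, RPLP2, MCUB and other overlapping or neighbouring genes are named for their position. The remaining caspase genes are not reported here.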

Additional observations from a re-analysis of the deposited data

Results flagged for a closer look

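Of 40 caspases, partners and markers with counts in all 4 libraries and tested in both lines, 6 are given here, beside 13.6% of 13173 such genes in the whole table. In these 6 genes the irradiated library was higher than the unirradiated one in SW1990 cells and lower in PANC-1 cells, or the reverse, with the counting intervals of both changes apart from 0. This difference between the lines was not tested, since each change rests on 1 library per group. The log2 fold change in SW1990 cells minus that in PANC-1 cells was 0.86 for CASP2, 1.14 for TNFRSF10B, 0.49 for TNFRSF10A, 0.34 for CYCS and 0.32 for TOP1, and it was -2.04 for GSDMB. The change of CYCS in PANC-1 cells turned from -0.07 to 0.02 with scaling to total counts, and that of TNFRSF10A from -0.33 to 0.06 in FPKM. From FPKM the difference between the lines was -1.1 for GSDMB, 0.45 for CASP2, 0.75 for TNFRSF10B, 0.06 for TNFRSF10A, 0.34 for CYCS and 0.19 for TOP1.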

How the results depend on the processing

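The number of genes called between irradiated and unirradiated libraries depended on the limits. In SW1990 cells it was 670, and it was 1495 with a fold change above 1.5, 97 and 16 with an assumed coefficient of variation of 0.2 and 0.4, and 4223 by q-value alone, a setting chosen after seeing the data. In PANC-1 cells it was 723, and under the same settings 1794, 103, 10 and 5288. Between the unirradiated lines it was 6015, against 3631 and 1633 with the assumed coefficients, and the radiation effect over both lines gave 0 genes with edgeR's quasi-likelihood test and 39 with DESeq2's Wald test. The call of CASP10 in SW1990 cells was lost with a coefficient of 0.2 or 0.4, and that of CASP6 between the lines with 0.4. With either coefficient the calls of IL1RN (SW1990 cells), GSDMB (both lines), CARD18 and BIRC7 (PANC-1 cells) were lost, and with 0.4 that of XIAP in PANC-1 cells. Scaling to total counts turned the log2 change of DIABLO (-0.01) and NPM1 (-0.05) in SW1990 cells and of CFLAR (0.06) and CYCS (0.02) in PANC-1 cells, the line difference of CASP2 (0.11) and CASP8 (0.15) and the difference of responses of CASP8 (-0.12). FPKM turned CARD8 (-0.23), TNFAIP8 (-0.42), MADD (-0.05) and NPM1 (-0.05) in SW1990 cells, CARD8 (0.12), TNFRSF10A (0.06) and CFLAR (0.19) in PANC-1 cells, the line differences of CASP2 (0.47), CASP8 (0.09) and CASP9 (0.06), and the difference of responses of CASP8 (-0.04). Beyond the scaling itself, the cause was not tested. Leaving out 1 library at a time, the line difference of CASP9 over both treatments lay between -0.23 and 0.32, and 5908 to 6394 genes were called between the lines. These fits also drop the treatment term, without which the 4 libraries gave 8392 genes, against 7921 with it. Scaling to total counts moved the split of higher and lower calls from 367 and 356 to 462 and 282 in PANC-1 cells and from 2874 and 3141 to 3552 and 2565 between the lines, with 414 and 268, and 3459 and 2596, from FPKM. Differences of the responses over 1 were split into 792 higher and 790 lower in SW1990 cells, against 604 and 1007 with total counts and 662 and 1086 from FPKM. Of the values for single genes under all settings, 19 turned, 17 fell short of a limit, 6 passed one and 1 moved, and the other 472 include settings that leave a fold change as it was. The radiation effect without a library was not run, as no residual degree of freedom was left. The fit of the radiation effect has the line as a term and so pairs the libraries of a line. The labels carry no replicate numbers for another pairing. Depth limits CASP10 in PANC-1 cells and CASP1, at 8 counts or fewer.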
